A study of Mus musculus with 18 samples.

Results

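Branched-chain amino acid catabolism was followed through 10 genes of the left ventricle, Bcat2, Bckdha, Bckdhb, Dbt, Mccc1, Mccc2, Ivd, Acadsb, Hibch and Aldh6a1. They were taken by name from the 38355 genes of the count tables, and all 10 were among the 14876 genes that passed the low-count filter. Each had between 1045 and 13533 reads in every library. After TAC, 9 of the 10 fell by 30.5% to 44.3% against sham hearts labelled with the same transgene, and Hibch was the exception. Of all genes tested, 14.5% were called lower in that comparison. After the Shunt none of the 10 was called against sham, where only 0.242% of all genes were called. Between the transgenic sham hearts and WT, 4 of the 10 were lower, Hibch among them, beside 14.9% of all genes.

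The RNA came from left ventricle of mice on a (DBA/2J x C3HeB/FeJ)F1 background. The cycD2 Shunt group (n = 5) carried the MHC-cycD2 transgene, a cyclin D2 construct driven by a heart muscle myosin promoter, and had a surgical opening between aorta and vena cava, a volume load. The cycD2 TAC group (n = 3, replicates 1, 2 and 4) was labelled with the same transgene, which the level of that gene in replicate 2 goes against, and had a constriction of the transverse aorta, a pressure load. The cycD2 sham group (n = 5) carried the transgene and had a sham operation, of which kind the labels do not say. The WT group (n = 5) carried no transgene and had no operation, so that genotype and sham surgery cannot be told apart between these groups. The operations were done at 8 weeks of age, and the time from surgery to tissue is not given in the sources used here. No group labelled WT was loaded. The series names 4 comparisons: sham hearts are set against WT, each loaded group against sham, and the Shunt against TAC. The labels give separate samples without naming the animals, so a p-value here weighs a difference against the spread over these libraries, which may in part be technical.

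Several libraries stood apart in ways that bear on the comparisons. Total gene counts were 19297821 to 30594075 per library. Ccnd2, the gene of the transgene, was at 17739 to 30478 CPM (library-scaled counts, with TMM factors) in 12 of the 13 libraries labelled cycD2, against 141 to 189 CPM in WT. The library labelled cycD2 TAC replicate 2 had 228 CPM, near the WT level. Directions drawn from the TAC group rest in part on this library, and the counts of calls among the 10 genes and the other listed genes are given with and without it. Xist, the RNA of the inactive X chromosome, had 2644 to 5787 counts in all 5 Shunt libraries and in TAC replicates 1 and 2, against 4 to 13 counts in the other 11 libraries. Y-linked Ddx3y ran the opposite way, at 0 to 9 counts in the 7 libraries with Xist and at 1987 to 2662 elsewhere. Every Shunt library therefore differed from every sham library in this respect, and Shunt surgery and sex-linked expression cannot be told apart between them. The clock genes Arntl and Dbp split the libraries as well. Arntl exceeded Dbp in every TAC library, in sham replicates 1 and 2, and in WT replicates 1 to 3. Dbp exceeded Arntl in every Shunt library and in the remaining sham and WT libraries.

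Leucine, isoleucine and valine are essential amino acids whose breakdown begins largely outside the liver, with heart and skeletal muscle among the tissues that start it. The mitochondrial aminotransferase encoded by Bcat2 turns them into branched-chain keto acids in a reversible step. The branched-chain keto acid dehydrogenase complex then commits the carbon by oxidative decarboxylation: Bckdha and Bckdhb encode the decarboxylase subunits, Dbt the core acyltransferase and Dld the dehydrogenase subunit that this complex shares with other complexes. The kinase Bckdk phosphorylates and inhibits the complex, and the phosphatase Ppm1k reverses that. Beyond it the path divides into a leucine branch with Ivd and the Mccc1 and Mccc2 carboxylase, an isoleucine branch with Acadsb, and a valine branch with Hibch and Aldh6a1.

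Start-proximal DNA is shown for Mccc1, Mccc2 and Aldh6a1, genes of the leucine and valine branches whose RNA was lower after TAC. Their windows held several of the motif matches, as did that of Ivd, which is not shown. RefSeq (GRCm38.p6) gave 12 windows of 250 bases before a start for 9 of the 10 genes, and Dbt had no entry. The bases just after the start were found in a GENCODE M21 transcript of the gene for 10 of the 12. They were not found for the Aldh6a1 window shown. Both strands were searched for the KLF motif CCCCACCC, the E-box CACGTG, the D-box TTATGTAA, the ESRRA motif TCAAGGTCA and the NRF1 motif CGCATGCG. The sequence CCAAT was added after the windows had been read. Sequences run 5′ to 3′ on the gene's strand and end at the base before the start, and capitals mark matches to CCCCACCC, CACGTG and CCAAT, the last also as its reverse complement ATTGG.
Mccc1, chr3:36000679-36000928, minus strand: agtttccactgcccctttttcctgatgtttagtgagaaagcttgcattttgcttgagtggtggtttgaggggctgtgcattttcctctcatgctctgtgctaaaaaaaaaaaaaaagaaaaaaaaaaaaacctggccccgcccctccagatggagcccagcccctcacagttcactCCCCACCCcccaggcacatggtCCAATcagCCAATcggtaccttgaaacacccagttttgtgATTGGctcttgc
Mccc2, chr13:100015640-100015889, minus strand: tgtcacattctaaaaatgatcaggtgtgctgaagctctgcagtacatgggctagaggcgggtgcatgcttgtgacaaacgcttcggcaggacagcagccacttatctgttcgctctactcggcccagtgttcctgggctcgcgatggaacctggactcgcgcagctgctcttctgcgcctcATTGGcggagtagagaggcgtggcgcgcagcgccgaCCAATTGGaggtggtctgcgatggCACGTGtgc
Aldh6a1, chr12:84451025-84451274, minus strand: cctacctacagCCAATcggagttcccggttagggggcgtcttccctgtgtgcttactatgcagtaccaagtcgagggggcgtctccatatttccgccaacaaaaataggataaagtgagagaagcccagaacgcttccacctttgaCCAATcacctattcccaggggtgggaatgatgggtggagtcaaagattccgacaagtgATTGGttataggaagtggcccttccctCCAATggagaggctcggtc
The KLF motif lay in 2 of the 12 windows, 74 bases before the start of Mccc1 and 63 before that of Ivd, and in 9.05% of all 32851 promoters of the table. The E-box lay in 1 window, 9 bases before the start of Mccc2, and in 6.02% of all promoters. The D-box, ESRRA and NRF1 letters were in none of the 12 windows, against 0.819%, 0.387% and 1.55% of all promoters. CCAAT was in 6 of the 12 windows, against 33.8% of all promoters, and at least 2 copies were in 5 of the 12, those of Ivd, Mccc1, Mccc2, Bckdhb and Aldh6a1, against 10.1% of all promoters. The copies at 33 and 30 bases before the Mccc2 start overlap each other. These are descriptions of letters in a window, and no binding was measured.

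Levels per length ranked the genes within a heart. On the RPKM scale, with counts divided by exonic bases not shared with another counted gene, Bckdha was highest in every group, at 361 ± 46.6 in Shunt, 284 ± 48.8 in TAC, 468 ± 66.1 in sham and 659 ± 30.9 in WT (mean ± SD). That value depends on the length used, because 61.7% of Bckdha exon bases overlap B3gnt8 on the opposite strand. Over all its exon bases Bckdha stood at 139 RPKM in Shunt, 109 in TAC, 179.6 in sham and 253 in WT, still the highest of the 10. Ivd, Aldh6a1 and Bcat2 followed in every group. Ivd stood at 72.1 ± 8.14 RPKM in Shunt, 51.2 ± 6.79 in TAC, 75.5 ± 9.82 in sham and 106 ± 8.09 in WT. Aldh6a1 stood at 77.8 ± 10.0 RPKM in Shunt, 43.3 ± 4.22 in TAC, 76.1 ± 10.3 in sham and 88.4 ± 4.28 in WT. It was above Ivd in Shunt and sham, within their SDs, and below it in TAC and WT. On unshared bases Bcat2 came next, at 52.4 ± 5.93 RPKM in Shunt, 42.2 ± 9.20 in TAC, 60.7 ± 7.25 in sham and 75.0 ± 3.14 in WT. Over all its exon bases Aldh6a1 stood at 63.3 RPKM in Shunt, 35.2 in TAC, 61.9 in sham and 71.9 in WT. On that length it was below Ivd in every group, and below Bcat2 in TAC and WT. Mccc1 was lowest in every group, at 13.0 ± 1.30 in Shunt, 9.30 ± 1.15 in TAC, 14.3 ± 0.908 in sham and 13.4 ± 1.02 RPKM in WT. This rank also depends on the length used, 10660 annotated bases for Mccc1 against 2802 for Mccc2. In CPM Mccc1 averaged 143 in WT, above Dbt (106), Mccc2 (96.5) and Bckdhb (95.9). Bckdhb stood at 53.1 ± 3.31 RPKM in WT hearts. Dbt and Acadsb, with 31.6 ± 2.21 and 31.3 ± 1.49 RPKM in WT, did not differ beyond their spread, and Mccc2 at 34.4 ± 2.04 lay close to both.

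**Figure D1:**
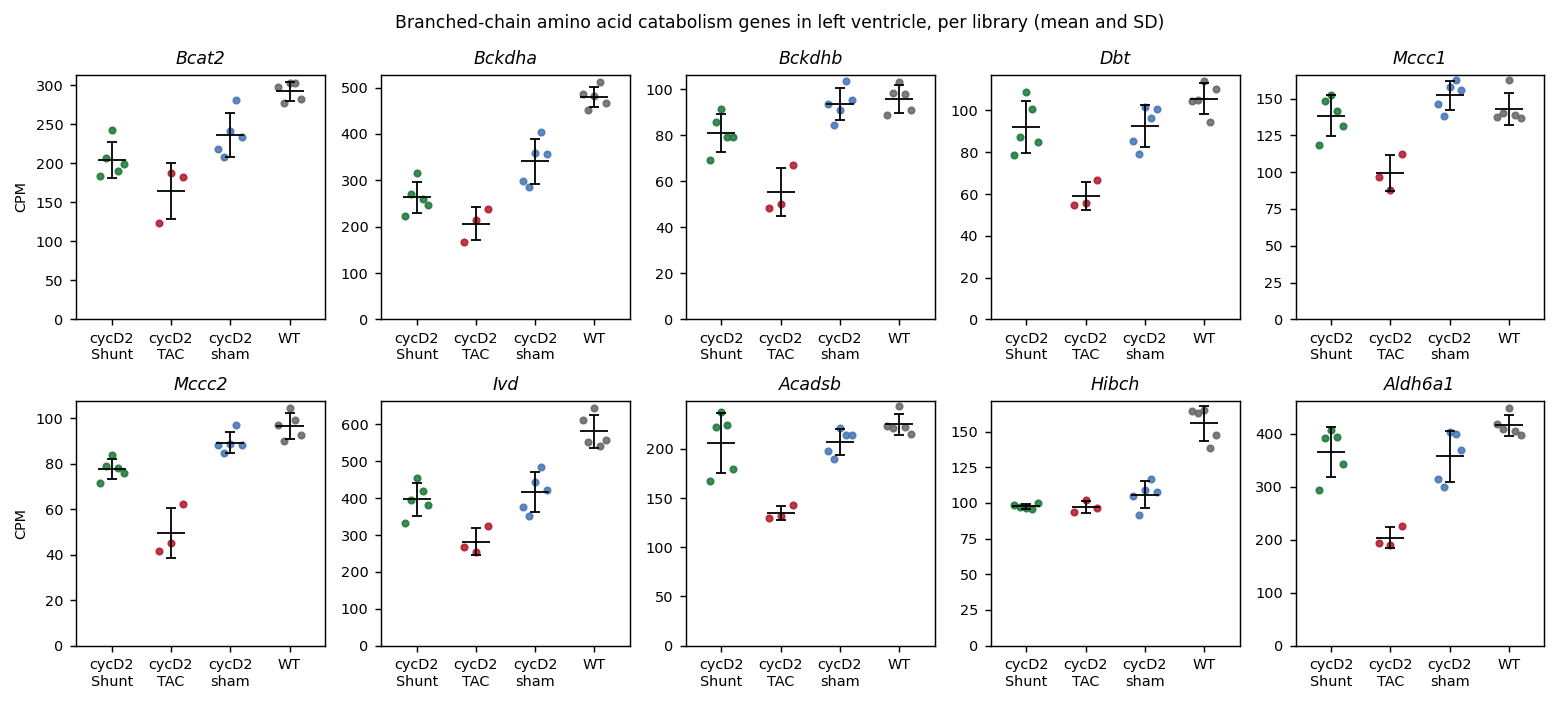
Level of each of the 10 genes per library, in CPM on a linear axis from 0, with the group mean and SD as lines. Points are single libraries (Shunt n = 5, TAC n = 3, sham n = 5, WT n = 5). TAC libraries lie below every sham library for all genes but Hibch, and for Hibch the groups labelled cycD2 sit together under WT.

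After TAC the first enzyme, the decarboxylase complex and every downstream branch were lower in RNA than in sham. By edgeR's quasi-likelihood test, with adjustment over all 14876 genes and a limit of 0.05, 9 of the 10 genes were called lower, none higher, while 14.5% of all genes were called lower and 16.4% higher. In those 9 genes no TAC library reached the lowest sham library, which held for 13.6% of all genes tested. The median log2 fold change of the 10 was -0.63, against 0.0067 over all genes tested. Without TAC replicate 2 the count was again 9, with log2 fold changes of the 9 from -0.80 (Mccc2) to -0.51 (Ivd). It was 2 with Y-linked expression as a covariate, where calls over all genes fell from 4600 to 483. With TAC replicate 4 alone against sham, the log2 fold changes ran from -0.68 (Aldh6a1) to -0.15 (Hibch). Both settings bear on the sex-linked difference. These are bulk hearts, so fewer cells of a type and less RNA per cell cannot be told apart.

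Bcat2, the aminotransferase, was at 123, 188 and 182 CPM in TAC hearts, against 219, 208, 242, 282 and 233 CPM in sham hearts. The TAC replicate 1 value lay well under the other TAC values, and the groups did not overlap. Its log2 fold change was -0.52 ± 0.12 (SE, adjusted p = 0.00385). Shunt hearts, at 183, 207, 243, 189.8 and 199 CPM, overlapped both sham and TAC, with log2 differences of -0.21 from sham (adjusted p = 0.364) and 0.31 from TAC (adjusted p = 0.0662). WT hearts held 297, 277, 304, 303 and 282 CPM. Sham fell by 19.1% against WT (log2 fold change -0.31 ± 0.11, adjusted p = 0.0367), although sham replicate 4 reached into the WT range. That call was lost in 11 other settings, with adjusted p-values of 0.056 to 0.469, among them leaving out WT replicate 1, 3 or 4 or sham replicate 1, 2, 3 or 5.

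Bckdha, the alpha subunit that the kinase phosphorylates, was at 168, 214 and 237 CPM in TAC hearts, against 299, 286, 359.9, 403 and 356 CPM in sham hearts. All TAC values were below all sham values. The log2 fold change was -0.72 ± 0.13 (adjusted p = 0.000344). Shunt hearts had 224, 269.8, 316, 259.7 and 247 CPM, of which only replicate 3 passed the lowest sham value. This was the widest Shunt difference among the 10, at -0.37 ± 0.11 with an adjusted p of 0.155, and DESeq2 called it at -0.38 (adjusted p = 0.0438). WT hearts, at 487, 451, 483, 511 and 466.4 CPM, lay above every library labelled cycD2, TAC replicate 2 among them. Sham fell by 28.9% against WT (log2 fold change -0.49 ± 0.11, adjusted p = 0.00215). B3gnt8 itself was at 2.4 to 6.7 CPM, and reads in the shared bases cannot be assigned without strand.

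Bckdhb, the beta subunit, was at 48.5, 50.3 and 67.3 CPM in TAC hearts, against 84.3 to 104 CPM in sham hearts (median 93.7). The groups did not overlap, with a log2 fold change of -0.76 ± 0.11 (adjusted p = 6.36e-05). Its sham and WT levels lay over each other, with means of 93.6 ± 6.97 and 95.9 ± 5.97 CPM and a log2 difference of -0.035 (95% interval -0.21 to 0.14). Dbt, the core subunit, was at 54.8, 55.9 and 66.9 CPM in TAC hearts, against 79.1 to 102 CPM in sham hearts (median 96.3). Its log2 fold change was -0.65 ± 0.11 (adjusted p = 0.000315). For Dbt the Shunt hearts, at 78.6 to 109 CPM, covered the sham range, and the log2 difference of -0.0096 had a 95% interval of -0.19 to 0.17. Between sham and WT, Dbt differed by -0.19 on the log2 scale (adjusted p = 0.142).

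The subunits did not keep one ratio across groups. The log2 ratio of Bckdha to Bckdhb CPM was 1.70 ± 0.059 in Shunt, 1.90 ± 0.17 in TAC, 1.86 ± 0.13 in sham and 2.32 ± 0.11 in WT (mean ± SD). No library labelled cycD2 reached the lowest WT ratio of 2.20. Bckdha to Dbt ran 1.52 ± 0.095 in Shunt, 1.79 ± 0.17 in TAC, 1.88 ± 0.11 in sham and 2.18 ± 0.15 in WT. These ratios were chosen after values were seen and carry no test.

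In the leucine branch, Ivd encodes isovaleryl-CoA dehydrogenase. Ivd was at 268, 254 and 324 CPM in TAC hearts, against 375, 351, 445, 486 and 423 CPM in sham hearts. Replicate 4 was the highest TAC library and still lay under the lowest sham library. The log2 fold change was -0.56 ± 0.11 (adjusted p = 0.00133). Shunt hearts had 333, 395, 454, 419 and 383 CPM, inside the sham range but for replicate 1. WT hearts had 612, 552, 644, 541 and 558 CPM, all above the highest sham value, and sham fell by 28.5% against WT (log2 fold change -0.48 ± 0.098, adjusted p = 0.00134).

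Mccc1 and Mccc2 encode the biotin-carrying alpha subunit and the beta subunit of methylcrotonyl-CoA carboxylase. Mccc2 had the largest fold change of the 10 after TAC. It was at 41.7, 45.2 and 62.2 CPM in TAC hearts, against 88.1, 84.5, 88.5, 96.8 and 88.1 CPM in sham hearts. The log2 fold change was -0.84 ± 0.10 (adjusted p = 1.91e-05), a fall of 44.3%. Its Shunt values of 71.5, 79.1, 83.8, 78.0 and 75.8 CPM were also all under the lowest sham value, by a small margin, as in 2.3% of all genes tested, yet the log2 difference of -0.20 (95% interval -0.36 to -0.034) had an adjusted p of 0.292. Mccc1 was at 97.0, 88.1 and 112 CPM in TAC hearts, against 138 to 163 CPM in sham hearts (median 156), with a log2 fold change of -0.62 ± 0.094 (adjusted p = 0.000119). Neither subunit was called between sham and WT. Mccc1 was the single member with a positive value there, 0.089 on the log2 scale (adjusted p = 0.433). The log2 ratio of Mccc1 to Mccc2 CPM was 0.83 ± 0.071 in Shunt, 1.01 ± 0.19 in TAC, 0.77 ± 0.055 in sham and 0.57 ± 0.074 in WT, and the WT values of 0.48 to 0.64 lay below all others.

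Acadsb, the short/branched-chain acyl-CoA dehydrogenase of the isoleucine branch, was at 129.8, 132 and 143 CPM in TAC hearts, against 189.5 to 221 CPM in sham hearts (median 214). The TAC values were close together and far from sham, with a log2 fold change of -0.62 ± 0.098 (adjusted p = 0.000174). Shunt hearts spread from 167 to 237 CPM, wider than sham on both sides, and the log2 difference from sham was -0.0082 (95% interval -0.17 to 0.15).

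The genes of the valine branch differed from each other. Aldh6a1, methylmalonate semialdehyde dehydrogenase, was at 194, 191 and 226 CPM in TAC hearts, against 314, 299.99, 404, 401 and 370.3 CPM in sham hearts. The log2 fold change was -0.81 ± 0.11 (adjusted p = 6.75e-05), a fall of 43.1%. Shunt hearts had 295, 392, 408, 395 and 343 CPM, across the sham range, and Shunt was higher than TAC by 79.9% (log2 fold change 0.85 ± 0.11, adjusted p = 8.03e-05). Sham differed from WT, at 397 to 449 CPM, by -0.22 (adjusted p = 0.101), and with the replicate block by -0.23 (adjusted p = 0.042). The unshared part of Aldh6a1 is 81.4% of its exon bases, since Bbof1 overlaps it on the other strand.

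Hibch, the hydrolase that frees hydroxyisobutyrate from its coenzyme A ester, stood apart. It was at 93.5, 102 and 96.6 CPM in TAC hearts, against 105, 91.2, 109, 117 and 108 CPM in sham hearts. The ranges overlapped, and the log2 difference of -0.12 had a 95% interval of -0.27 to 0.024 (adjusted p = 0.229). Shunt hearts lay in a narrow band of 95.7 to 100.0 CPM. WT hearts had 164, 163, 165, 139 and 147 CPM, above every library labelled cycD2, TAC replicate 2 with its WT-like Ccnd2 among them. Sham fell by 32.0% against WT (log2 fold change -0.56 ± 0.064, adjusted p = 1.20e-05), the largest sham difference of the 10. The log2 ratio of Hibch to Aldh6a1 CPM was therefore highest after TAC, at -1.06 ± 0.16, against -1.90 ± 0.21 in Shunt, -1.75 ± 0.11 in sham and -1.42 ± 0.088 in WT.

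**Figure D2:**
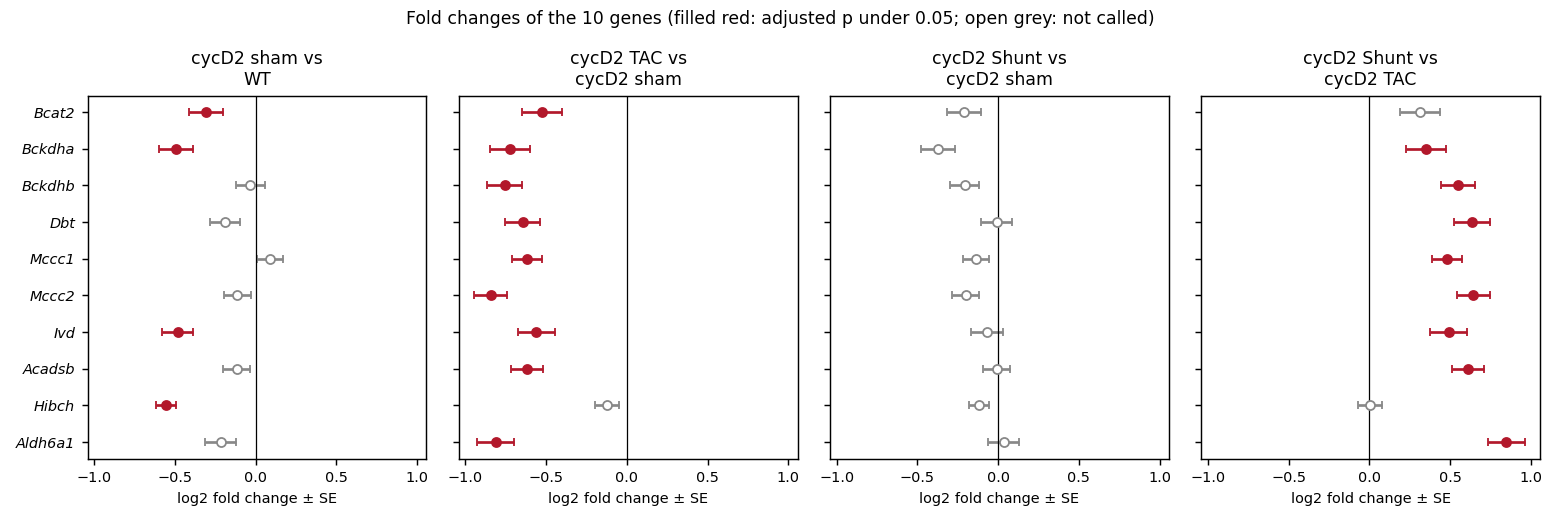
Log2 fold change of each gene with its SE in the 4 comparisons, first-named group over second. Filled red points passed an adjusted p of 0.05 and open grey points did not. In TAC against sham 9 genes lie left of 0 past the limit, in Shunt against sham none does, and Mccc1 alone lies right of 0 in sham against WT.

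For cycD2 sham against WT, 4 of the 10 genes were called lower (Bcat2, Bckdha, Ivd and Hibch), none higher, beside 14.9% lower and 13.5% higher among all genes. The median log2 fold change was -0.20, against -0.014 over all genes. Bckdhb, Dbt, Mccc1, Mccc2, Acadsb and Aldh6a1 were not called. The called genes therefore sat at the transaminase, at 1 subunit of the complex and once each in the leucine and valine branches. In libraries with Arntl above Dbp, 4 genes were called, but not the same 4. Aldh6a1 was in (-0.46, adjusted p = 0.0346) and Bcat2 out (-0.44, adjusted p = 0.0849). In libraries with Dbp above Arntl, where 3 sham libraries met 2 WT libraries, 1 gene was called, Hibch. There the log2 differences were -0.21 for Bcat2, -0.39 for Bckdha and -0.28 for Ivd (adjusted p = 0.469, 0.138 and 0.209). Calls over all genes were 4227 with every library, 1929 with Arntl above Dbp and 740 with Dbp above Arntl.

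For cycD2 Shunt against cycD2 sham, 0 of the 10 genes were called by edgeR, beside 0.242% of all genes (36 genes). At an unadjusted p under 0.05 there were 3, Bckdha, Bckdhb and Mccc2, while 14.6% of all genes had such a p, and DESeq2 called 1, Bckdha. The log2 differences ran from -0.37 to 0.034 with a median of -0.13, and 9 of the 10 were negative. With Y-linked expression as a covariate, 7 of those 9 values became positive, with none called. In that setting 0 of all genes were called. The covariate itself separates every Shunt library from every sham library, so the setting cannot decide between them and no conclusion is drawn from it.

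For cycD2 Shunt against cycD2 TAC, 8 of the 10 genes were higher, all but Bcat2 and Hibch, beside 13.3% of all genes higher and 13.6% lower. The log2 fold changes of the 8 ran from 0.35 (Bckdha, adjusted p = 0.0428) to 0.85 (Aldh6a1). In 7 of them no Shunt library was as low as the highest TAC library, which held for 12.2% of all genes tested. Mccc2 and Dbt were higher by 56.4% and 55.5%, and Acadsb by 52.9%. Bckdhb, Ivd and Mccc1 were higher by 46.5%, 40.7% and 39.6%. Hibch differed by 0.0042 (95% interval -0.14 to 0.15). Without TAC replicate 2 there were again 8 calls, with Bcat2 (0.43, adjusted p = 0.041) in and Bckdha (0.38, adjusted p = 0.0805) out. The Bckdha call was also lost without TAC replicate 1 (0.22, adjusted p = 0.228) and without Shunt replicate 2, 3 or 4. With the clock covariate 6 were called, without Bckdha (0.15, adjusted p = 0.502) and Ivd (0.38, adjusted p = 0.0771). The comparisons with sham and with each other share their TAC and sham libraries, so their values are not independent.

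Within a group, 1 library was often lowest or highest for most of the 10 genes. Sham replicate 2 was the lowest sham library for all 10 genes, and sham replicate 4 the highest for 7. Among TAC hearts replicate 1 was lowest for 7 and replicate 4 highest for 8. Among Shunt hearts replicate 1 was lowest for 9 and replicate 3 highest for 9. In WT, replicate 3 was highest for 9, while the lowest value fell to replicates 1, 2, 4 and 5. The sum of the 10 genes ran from 1638 to 2190 CPM in Shunt, 1218 to 1518 in TAC, 1812 to 2361 in sham and 2496 to 2772 in WT.

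**Figure D3:**
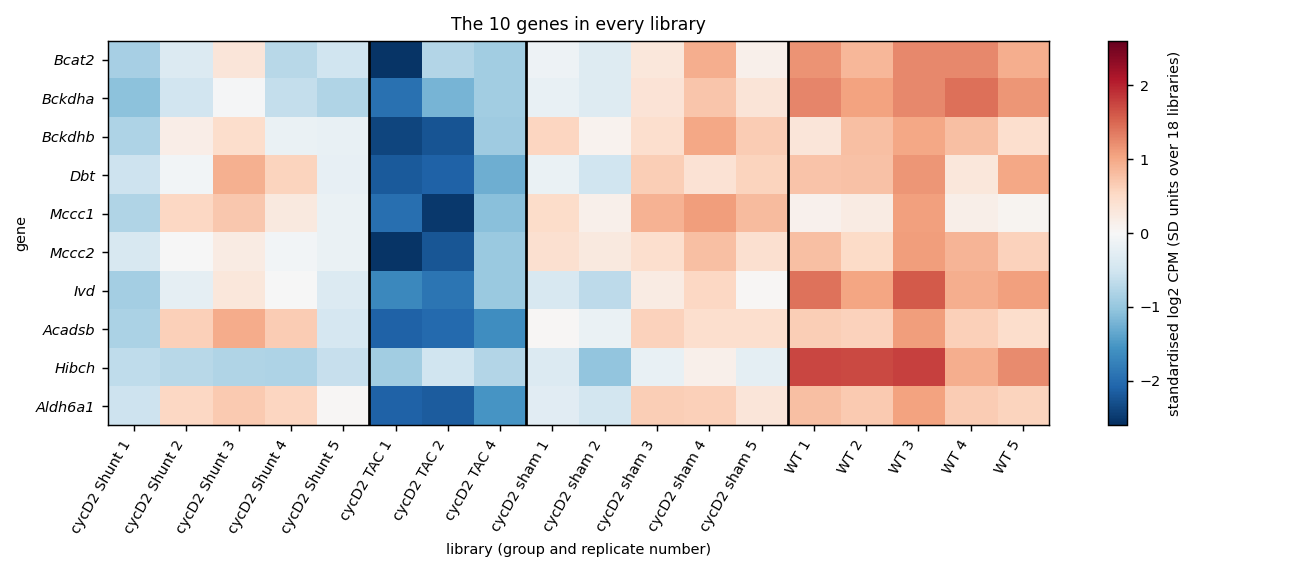
Log2 CPM of each gene, standardised over the 18 libraries (colour, in SD units), with 1 column per library and black lines between groups. TAC replicates 1 and 2 are the darkest blue, at means of -2.04 and -1.76 over the 10 genes, TAC replicate 4 is at -1.09, and the WT columns are red with means of 0.75 to 1.23.

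The clock split ran along part of this. Sham replicates 1 and 2, with Arntl above Dbp, lay below sham replicates 3 to 5 for 8 of the 10 genes (all but Bckdhb and Mccc2), where 20.4% of all genes were lower in this way and 18.3% higher. In WT the same split put none of the 10 lower and 2 higher, Hibch and Aldh6a1, with 21.1% of all genes each way. All TAC libraries had Arntl above Dbp, so a comparison with sham replicates 1 and 2 matches them in this respect. There 7 of the 10 were called lower after TAC, and the log2 fold changes of Bcat2 and Ivd were -0.38 (adjusted p = 0.106) and -0.37 (adjusted p = 0.0664). Calls over all genes fell from 4600 to 1985 in that setting. With the Arntl to Dbp difference as a covariate 9 were called, from -0.42 for Bcat2 to -0.81 for Mccc2. Sex-linked expression overlapped the TAC comparison in TAC replicates 1 and 2. TAC replicate 4, which matched sham in Xist and Ddx3y, was set alone against sham. That fit took the spread of the other groups, on the assumption that TAC replicate 4 varies like them. Its log2 fold changes for the 10 genes were all negative, from -0.68 (Aldh6a1) to -0.15 (Hibch). With the Y-linked covariate in all libraries 2 were called, Mccc2 and Aldh6a1, and calls over all genes fell to 483.

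Regulators of the complex changed in TAC hearts too. Ppm1k, the phosphatase, was at 72.0, 61.2 and 94.2 CPM in TAC hearts, against 170.4, 167, 186, 178 and 182 CPM in sham hearts. Every TAC value was well under every sham value. The log2 fold change was -1.22 ± 0.18 (adjusted p = 0.000117), a fall of 57.1%. Without TAC replicate 2 it was -1.10 (adjusted p = 0.00117), with TAC replicate 4 alone -0.92 (adjusted p = 0.0599) and with the Y-linked covariate -0.93 (adjusted p = 0.0694). Its Shunt values of 113, 202, 218, 207 and 143 CPM spread to both sides of sham. Shunt was higher than TAC by 1.22 ± 0.18 on the log2 scale (adjusted p = 0.000189), and the difference from sham was 0.0010 (95% interval -0.29 to 0.29). Bckdk, the kinase, was at 108, 102 and 124 CPM in TAC hearts, against 129 to 154 CPM in sham hearts (median 139), and fell by 20.9% (log2 fold change -0.34, adjusted p = 0.00328). It was -0.30 (adjusted p = 0.0247) when TAC replicate 2 was left out. The Bckdk call was lost with TAC replicate 4 alone (-0.20, adjusted p = 0.342), with the Y-linked covariate (-0.18, adjusted p = 0.393), against sham libraries with Arntl above Dbp (-0.27, adjusted p = 0.0774), and without TAC replicate 2 in the presence of the clock covariate (-0.20, adjusted p = 0.132). The log2 ratio of Bckdk to Ppm1k CPM was 0.40 to 0.74 in TAC, against -0.75 to -0.012 in Shunt, -0.41 to -0.21 in sham and -0.16 to 0.098 in WT, with no overlap of TAC with any group. Between sham and WT, Ppm1k differed by 0.33 (adjusted p = 0.106) and Bckdk by 0.033 (adjusted p = 0.755).

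Klf15, a zinc-finger transcription factor known in mice to promote expression of these enzymes, was at 27.8, 30.7 and 41.2 CPM in TAC hearts, against 38.2, 44.5, 64.1, 67.5 and 80.9 CPM in sham hearts. The ranges overlapped at sham replicate 1. The log2 fold change was -0.83 ± 0.30 (adjusted p = 0.0469), which became -0.20 (adjusted p = 0.489) with the clock covariate and -0.79 (adjusted p = 0.145) without TAC replicate 2. The call was also lost without TAC replicate 1 or without sham replicate 3, 4 or 5. Klf15 moved with the clock split in WT hearts as well, at 40.4, 41.1 and 61.3 CPM in WT replicates 1 to 3 and 88.2 and 80.6 CPM in WT replicates 4 and 5. Shunt hearts had 115, 56.9, 90.0, 87.1 and 93.9 CPM, higher than TAC by 1.42 ± 0.31 on the log2 scale (adjusted p = 0.00323), and by 0.63 (adjusted p = 0.0555) with the clock covariate. Shunt and sham differed by 0.59 (adjusted p = 0.302), and sham and WT by -0.080 (adjusted p = 0.847).

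Transport genes moved in both directions. Slc7a5, the large neutral amino acid transporter of the plasma membrane, was at 21.2, 16.9 and 13.3 CPM in TAC hearts, against 6.0 to 10.4 CPM in sham hearts, higher by 1.09 ± 0.25 on the log2 scale (adjusted p = 0.00322; 0.0126 without TAC replicate 2). Its partner Slc3a2 differed by 0.11 between TAC and sham (adjusted p = 0.51), and was higher in sham than in WT by 30.8% (adjusted p = 0.00823). Slc25a44, a mitochondrial carrier of branched-chain amino acids, averaged 27.7 CPM in TAC and 34.4 CPM in sham, and fell by 19.4% (adjusted p = 0.0197), a call lost without TAC replicate 2 (adjusted p = 0.0922). Slc25a44 was higher in sham than in WT by 17.7% (adjusted p = 0.04). Of the list of 8 regulators and transporters, 1 was higher and 4 lower in TAC against sham, 3 were higher and 1 lower in Shunt against TAC, 2 were higher in sham against WT, and 0 were called in Shunt against sham, where 2 had an unadjusted p under 0.05, Bckdk and Klf15. Without TAC replicate 2 these became 1 higher and 2 lower in TAC against sham, and 2 higher in Shunt against TAC. The TAC against sham count was 0 with the Y-linked covariate and 0 with TAC replicate 4 alone, each with 1 gene at an unadjusted p under 0.05. It was 3 with the clock covariate and 2 against sham libraries with Arntl above Dbp, and Shunt against TAC had 1 with the clock covariate. In libraries with Dbp above Arntl, 0 were called for sham against WT, with 0 at an unadjusted p under 0.05. Calls over all genes fell there from 4227 to 740. The sham against WT count of the 8 became 1 when WT replicate 1, 2 or 3 or sham replicate 3, 4 or 5 was left out.

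**Figure D4:**
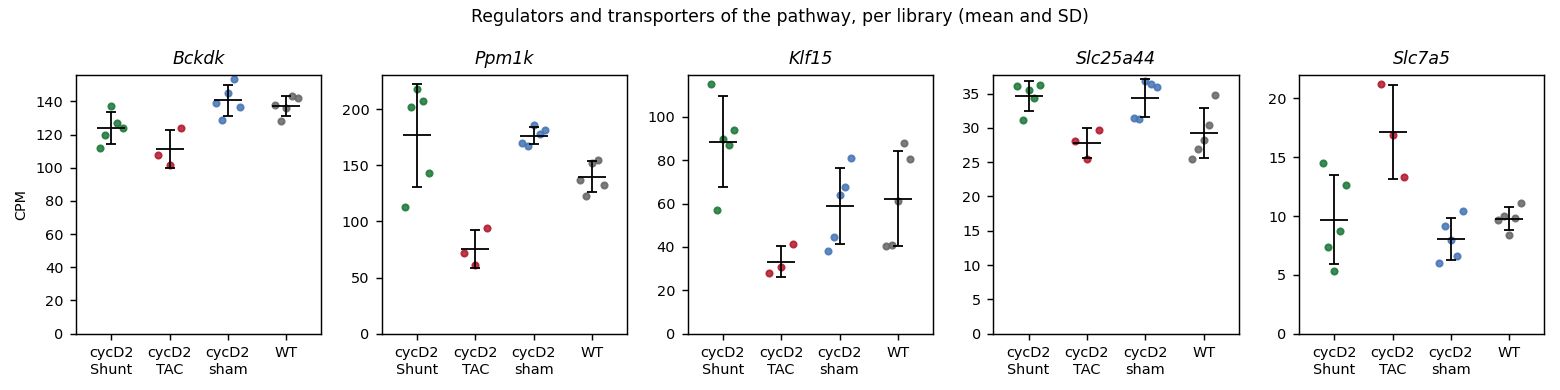
Level of 5 regulators and transporters of the pathway per library, in CPM on linear axes from 0, with the mean and SD of each group as lines. Ppm1k is under 100 CPM in the 3 TAC libraries and above it in every other library, while Slc7a5 is above 13 CPM in every TAC library and under 12 CPM in every sham and WT library.

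Most of the other 16 listed enzymes of the pathway were lower after TAC as well. In TAC against sham 14 were lower and none higher, with a median log2 fold change of -0.41. Hadha and Hadhb, the subunits of the mitochondrial trifunctional protein, fell by 43.5% and 39.0% (adjusted p = 2.18e-05 and 1.74e-05). Pcca and Mut, of the propionate route that isoleucine and valine carbon enters, fell by 30.2% and 31.5%. Dld, the dehydrogenase subunit of the complex, fell by 30.0%, and Echs1, enoyl-CoA hydratase, fell by 34.9%. The remaining 2 were Abat at 0.40 (adjusted p = 0.0922) and Bcat1, the cytosolic aminotransferase, which was near 1 CPM (0.58, adjusted p = 0.286). In Shunt against sham 0 of the 16 were called, with 3 at an unadjusted p under 0.05 (Hadha, Acad8 and Hsd17b10), and in Shunt against TAC 11 were higher, 7 with the clock covariate. Leaving out TAC replicate 2, 12 of the 16 were lower in TAC against sham and 9 higher in Shunt against TAC. With TAC replicate 4 alone against sham, or with the Y-linked covariate, 5 of the 16 were lower.

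Between sham and WT, 11 of the 16 were lower, and 1 in libraries with Dbp above Arntl, where calls over all genes fell from 4227 to 740. Abat, which encodes the aminotransferase of gamma-aminobutyrate and also acts on beta-amino acids, was at 18.7, 21.4, 19.2, 19.7 and 26.9 CPM in sham hearts, against 59.2, 60.7, 63.4, 34.9 and 51.5 CPM in WT hearts. The groups did not overlap, and the log2 fold change was -1.35 ± 0.15 (adjusted p = 1.18e-05). Hibadh, the valine-branch dehydrogenase that acts after Hibch, fell by 27.0% (adjusted p = 7.23e-05). Acat1, the thiolase of the isoleucine and ketone routes, fell by 25.7%. Hadhb and the leucine-branch hydratase Auh fell by 23.1% and 18.9%, and Pcca fell by 14.5%. Pccb, which pairs with Pcca in propionyl-CoA carboxylase, had a log2 difference of 0.097 (adjusted p = 0.387).

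Mitochondrial and cell markers moved alongside the 10 genes after TAC. All 15 tricarboxylic acid cycle genes were lower than in sham, with a median log2 fold change of -0.45 against -0.63 for the 10 genes, and their summed level was 14326 to 17754 CPM in TAC, against 20158 to 23415 CPM in sham. In Shunt against TAC 11 of the 15 were higher, and in Shunt against sham 0 were called, with 12 at an unadjusted p under 0.05. Of 8 heart muscle cell markers, 6 were lower and 1 higher in TAC, with a summed level of 66168 to 95140 CPM in TAC and 99596 to 111831 CPM in sham. All 8 fibroblast markers were higher, with sums of 3075 to 7912 CPM in TAC and 1223 to 2304 CPM in sham. Of 8 endothelial markers, 5 were higher, and of 8 macrophage markers 0 were called, with 1 at an unadjusted p under 0.05. Of 8 smooth muscle and pericyte markers, 3 were higher and 1 lower. Of 7 atrial markers tested, 1 was higher, Nppa, a natriuretic peptide gene that loaded ventricles also express, at 2042 to 4686 CPM in TAC and 36.5 to 53.0 CPM in sham, and 1 was lower, Sbk2. Of 6 adipocyte markers tested, 1 was lower, and the defining Adipoq, Plin1 and Cidec were at 2.08 CPM or less in every library. Without TAC replicate 2, all 15 tricarboxylic acid cycle genes were lower in TAC against sham and 7 were higher in Shunt against TAC. In TAC against sham it left 4 heart muscle markers lower and 1 higher, 5 fibroblast and 2 endothelial markers higher, 2 smooth muscle and pericyte markers higher and 1 lower, 1 atrial marker higher and 1 lower, and no adipocyte or macrophage marker called. In Shunt against TAC, 5 heart muscle markers were higher and 1 lower, while 7 fibroblast and 4 endothelial markers were lower and 0 higher. Without TAC replicate 2, 2 heart muscle markers were higher and 2 lower, and 3 fibroblast and 3 endothelial markers were lower. Heart muscle markers summed to 92215 to 99031 CPM in Shunt, below every sham library. Of these 0 were called in Shunt against sham, with 2 at an unadjusted p under 0.05. Between sham and WT, 5 of the 8 endothelial markers were lower, with sums of 929 to 1230 CPM in sham and 1143 to 1522 CPM in WT. Of the 7 atrial markers tested 4 were higher and 1 lower, with sums of 129 to 926 CPM in sham and 149 to 365 CPM in WT. Of the heart muscle markers 2 were higher and 1 lower, of the smooth muscle and pericyte markers 3 were lower, and 0 fibroblast markers were called, with 1 at an unadjusted p under 0.05. Reads outside annotated genes were 13.6% to 14.9% of reads in TAC, 14.9% to 17.9% in sham, and up to 22.8% in WT, where every library lay above the sham range. The part of cell makeup and of these reads in the 10 genes' values was not tested.

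**Figure D5:**
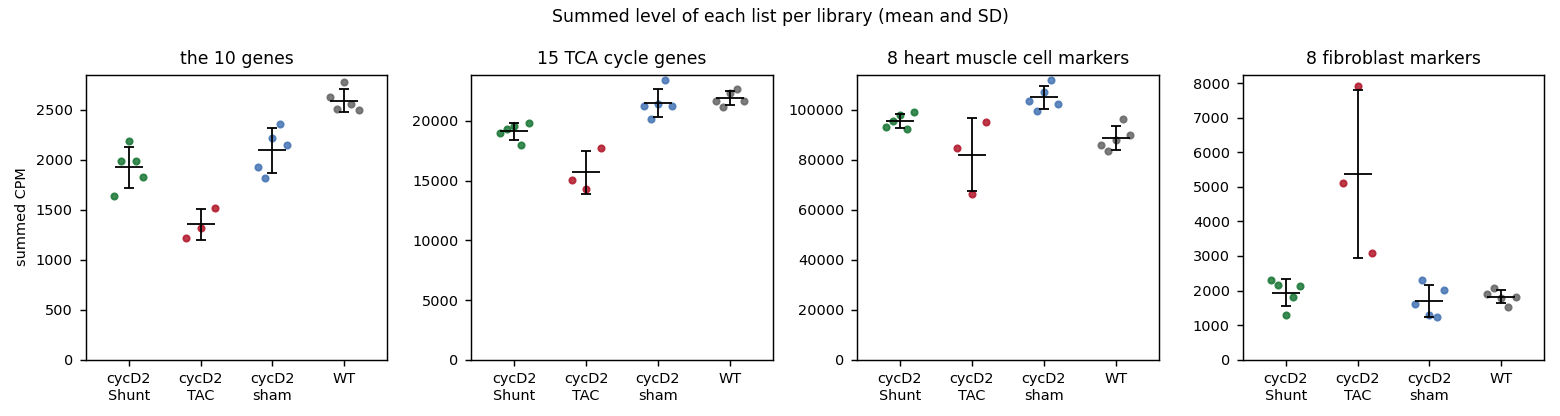
Summed CPM per library of the 10 genes, 15 tricarboxylic acid (TCA) cycle genes, 8 heart muscle cell markers and 8 fibroblast markers, on linear axes from 0, with group mean and SD. TAC libraries are lowest for the 10 genes and the TCA genes and highest for the fibroblast markers, and WT is highest for the 10 genes.

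The genes most like the mean profile of the 10 were found by the root mean square difference of standardised log2 CPM over the 18 libraries, among 13722 protein-coding genes. Msrb2, a methionine sulfoxide reductase, was nearest at 0.204 SD units. Pcca (0.238), Asb14 (0.242), Hadh (0.244) and Aldh4a1 (0.247) followed, against a median of 1.39 for all genes. Of the 10 genes themselves, 9 lay at 0.264 to 0.49 and Hibch at 0.741.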

How the data were processed

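Per the labels' protocols, left ventricle RNA was isolated with an RNeasy Fibrous Tissue Mini Kit and made into TruSeq RNA v2 libraries, a kit that does not mark strand. The authors deposited raw read counts per Ensembl gene, 1 table per library, not normalised. The submitters' processing notes name the aligner STAR 2.3.0e, the counter HTSeq 0.6.1p1, SAMtools 0.1.19, CASAVA 1.8.2, DESeq2 1.8 and FastQC, and the builds GRCm38 and mm10. The annotation release and the strand setting are not given in the sources used here. GENCODE M21 gave symbols to 36602 of 38355 identifiers. The 5 summary lines of each table were left out of totals. Reads without a feature were 13.6% to 22.8% of a library's assigned, ambiguous and unassigned reads.

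Genes were kept by edgeR's filterByExpr (minimum count 10), libraries were scaled by TMM, and all 18 libraries entered a model with a mean for each group (edgeR 4.0.16, R 4.3.3, quasi-likelihood F test, robust, Benjamini-Hochberg over all 14876 genes). Each SE was derived by dividing the fold change (log2, unsigned) by the root of its F statistic. The 95% intervals take a normal quantile of that SE, so they are somewhat narrower than the F test implies. For Bcat2 in Shunt against sham the interval was -0.42 to -0.0038, beside an unadjusted F test p of 0.0609. Libraries held 19297821 to 30594075 gene counts, and the common biological coefficient of variation was 0.16. Alternatives were relative log expression and upper quartile scaling, DESeq2 1.42.0, limma-voom 3.58.1, no or a stricter filter (1 CPM in 3 libraries), a clock covariate (Arntl minus Dbp, log2), a Y-linked covariate, an atrial covariate (Myl7, Myl4 and Sln), a replicate block, 2 groups fitted alone, subsets by clock or sex-linked genes, and each library left out.

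Samples were grouped by title. Libraries with the same replicate number had residual correlations of 0.129, 0.151 and 0.157 for TAC with sham, all above 0.1. Signs were mixed elsewhere, at -0.132 to 0.303 for sham with WT and -0.264 to 0.318 for Shunt with sham. Shunt with TAC ran from 0.0928 to 0.17. The numbers may mark pairs for TAC with sham, but the labels do not say what a number marks. The main fits were not paired, and a replicate block was fitted as an alternative. The block moved no count of calls among the 10 genes by over 1.5 times. The method was also run on simulated counts with the same spread for every gene. Those counts held no clock, sex-linked or Ccnd2 differences between libraries, so the run does not bear on these. The 10 genes, the other lists (pathway enzymes, regulators and transport, TCA cycle, clock, Y-linked and cell markers) and the settings were chosen with earlier results of these data known. The text names all 10 genes, up to 6 genes per list and comparison by smallest p, Klf15, Bckdk and Ppm1k, and the 5 nearest profiles; Nppa, Sbk2, B3gnt8, Bbof1, Slc3a2, Pccb, Adipoq, Plin1, Cidec, Hibch-to-Aldh6a1 and other ratios, Bcat1 and the CCAAT motif were named after values or sequences were seen.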

Additional observations from a re-analysis of the deposited data

Results flagged for a closer look

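Mccc1 in WT replicate 3 stood apart from the other WT libraries, at 162.4 CPM against 137 to 140 CPM in the other 4. It was 1 of 30 groups of values checked for a library far from the rest, and chance alone would flag about 1 in 20. The same library was the highest WT library for 9 of the 10 genes.

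Shunt and TAC libraries differed for 8 of the 10 genes by edgeR's quasi-likelihood test. The log2 differences, Shunt minus TAC, were 0.35 for Bckdha, 0.55 for Bckdhb, 0.64 for Dbt, 0.48 for Mccc1, 0.64 for Mccc2, 0.49 for Ivd, 0.61 for Acadsb and 0.85 for Aldh6a1. Their adjusted p-values ran from 8.03e-05 for Aldh6a1 to 0.0428 for Bckdha. All Shunt libraries had Dbp above Arntl and all TAC libraries had Arntl above Dbp, so the operations and the clock split cannot be told apart between them. Xist was high in all Shunt libraries and in TAC replicates 1 and 2, but not in TAC replicate 4. Without TAC replicate 2, whose Ccnd2 was near the WT level, 8 genes were again called, with Bcat2 in and Bckdha (adjusted p = 0.0805) out. With the clock covariate 6 of the 8 were called, and Bckdha and Ivd were not.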

How the results depend on the processing

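Of 910 single-gene values for the 10 genes under other settings, 832 kept direction and side of the limit, 37 lost a call, 8 gained one and 33 turned sign, none of these among called values; the cause was not tested. Leaving out each library gave 3 to 4 calls for sham against WT, 9 to 9 for TAC against sham, 0 to 0 for Shunt against sham and 7 to 9 for Shunt against TAC. The replicate block gave 5, 9, 0 and 8 calls. Sham against WT gave 1 call in libraries with Dbp above Arntl. TAC against sham gave 2 with the Y-linked covariate and 4 with TAC replicate 4 alone, and Shunt against sham gave 1 by DESeq2. Over all genes, Shunt against sham called 36, against 233 by DESeq2, 58 with the clock covariate, 0 with the Y-linked covariate and 21 without sham replicate 4. Shunt against TAC called 4015, against 2127 with the clock covariate. TAC against sham called 4600, against 483 with the Y-linked covariate, 742 with TAC replicate 4 alone, 1985 with Arntl-high sham libraries and 2404 without TAC replicate 2 and with the clock covariate. Sham against WT called 4227, against 1929 and 740 within the Arntl-high and Dbp-high libraries. Signs turned in values that were not called. Ppm1k in Shunt against sham was -0.0048 with relative log expression scaling, -0.0049 by DESeq2, -0.043 by limma-voom, -0.00045 unfiltered, -0.0081 with the stricter filter, -0.025 with the replicate block, -0.014 with the clock covariate and -0.056 against Dbp-high sham libraries, where Aldh6a1 was -0.11. Hibch in Shunt against TAC was -0.0012 with upper quartile scaling, -0.0018 with the stricter filter, -0.0062 with the block, -0.0059 with the clock covariate, -0.0033 with the atrial covariate and -0.00027 against TAC libraries with Xist. With the Y-linked covariate, Shunt against sham was 0.045 for Bcat2, 0.30 for Bckdhb and Dbt, 0.17 for Mccc1, 0.40 for Mccc2, 0.28 for Ivd, 0.11 for Acadsb and 0.087 for Bckdk. That covariate separates every Shunt library from every sham library, so no conclusion is drawn from these signs. Sham against WT was 0.050 for Klf15 with the atrial covariate, -0.029 for Mccc1 in Arntl-high libraries and 0.035 for Bckdhb in Dbp-high libraries. Leaving out a library gave -0.062 to 0.023 for Bckdhb and -0.22 to 0.094 for Klf15 in sham against WT. In Shunt against sham it gave -0.078 to 0.042 for Dbt, -0.064 to 0.059 for Acadsb, -0.041 to 0.10 for Aldh6a1 and -0.087 to 0.13 for Ppm1k, and in Shunt against TAC -0.023 to 0.043 for Hibch. With 3 TAC libraries, the TAC comparisons have the least precision.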
